A study of Mus musculus with 14 samples.

Results

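The comparison described here is of H3K27me3 in regulatory T cells (Tregs) with and without Slc31a1, from 2 control and 2 knockout CUT&Tag libraries out of 14 samples in the series, 10 of which had a peak list. The control libraries, ChimeraWT1 and ChimeraWT2, are called control 1 and control 2, and the knockout libraries, ChimeraKO1 and ChimeraKO2, knockout 1 and knockout 2. The 4 lists were those that the labels give to this mark, and only peaks on the 19 autosomes were used. Merging peaks that overlapped by at least 1 bp gave 62035 regions, which were compared by the presence of a peak and by the bases under peaks in each library. Because the list of control 1 is short and starts at a looser threshold, counts by presence are also given with control 2 as the only control.

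H3K27me3 is trimethylation of lysine 27 of histone H3. Polycomb repressive complex 2 writes the mark over genes that a cell keeps silent, where it can form broad domains, and in T cells it covers among others regulators of alternative lineages. Acetylation of the same lysine, H3K27ac, marks active promoters and enhancers, and the same lysine cannot carry both at once. Slc31a1 encodes CTR1, the high-affinity copper importer of the plasma membrane. In CUT&Tag an antibody against a mark tethers a transposase, which cuts out and tags the surrounding DNA for sequencing.

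Control Tregs came from Foxp3YFPcre;wt mice and knockout Tregs from Foxp3YFP-Slc31a1△;wt mice, sorted by FACS, with 140000 cells per sample. Both groups carry the Foxp3-YFP-Cre allele, so the deletion is driven from the Foxp3 locus and acts in cells that express it. The labels call the animals chimeras; how they were made, their age and whether each library came from its own animal are not given in the sources used here, so p-values measure only the spread between these libraries. The targeted gene and the markers of Tregs or of other cells were not analysed here, because no annotation of the build of the lists, mm39, was used. For the same reason regions are given by position and no gene is named.

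Libraries of the same genotype lay farther apart in covered length than the means of the genotypes. Control 1 held 7507 peaks, control 2 43253, knockout 1 36053 and knockout 2 56634. Their peaks covered 4.89, 40.1, 30.4 and 62.0 Mb in the same order. Knockout 1 thus lay below control 2 and knockout 2 above it. The mean covered length came to 22.5 ± 24.9 Mb for the controls and to 46.2 ± 22.3 Mb for the knockouts (SD, n = 2 libraries per genotype, two-sided exact permutation p = 0.667, where 0.333 is the smallest possible). Against control 2 alone the knockout mean was 6.16 Mb and 3090.5 peaks higher. Median peak width was 510 and 564 bp in the controls and 608 and 626 bp in the knockouts, with both knockouts above both controls (exact permutation p = 0.333, the smallest possible). The narrowest peak also differed between lists, at 253 and 225 bp in controls 1 and 2 and 274 and 229 bp in knockouts 1 and 2. The part of this lower limit in the medians was not tested. Depth, read back from the fold and p-value of the peaks, was 12, 17.2, 11.6 and 22.3 fragments per kb. Among the 3 longer lists, covered length followed the order of depth, and its part in the differences was not tested.

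The list of control 1 stood apart in how it was called. Its peaks had −log10 p between 2.02 and 7.21, whereas the other lists started just above 9 and reached 95.2, 88.9 and 114. In its list 1 fragment counted as 0.0637 of a pileup unit, against 0.936, 1 and 0.928 in control 2, knockout 1 and knockout 2. The depth of the background library, read back where a list had been scaled down to it, was 0.763 fragments per kb for control 1, 16.1 for control 2 and 20.7 for knockout 2. It differed more between the 2 control lists than between control 2 and knockout 2. Its part in the differences between lists was not tested.

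**Figure D1:**
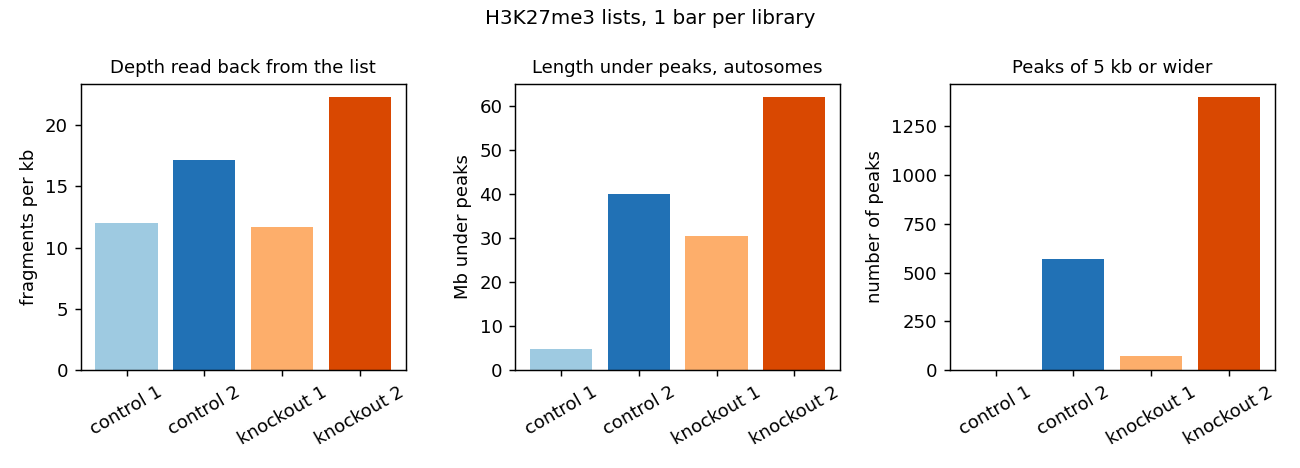
Depth in fragments per kb, Mb under peaks and the number of peaks of 5 kb or wider, with 1 bar per H3K27me3 library. Control 1 covers 4.89 Mb at a depth of 12, while knockout 1 covers 30.4 Mb at 11.6, and wide peaks number 1, 567, 75 and 1397 from left to right.

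Most regions that recurred between libraries were shared across genotypes rather than within one. A peak in all 4 libraries was found at 3857 regions, 6.22% of 62035, with a median width of 4075 bp and the widest at 21857 bp. Control 2 shared a further 14796 regions with both knockouts and no peak of control 1. The pattern of control 2 and knockout 2 without the other libraries held 9518 regions. Both knockouts and no control held 6189 regions, or 9.98%, and both controls and no knockout 27, or 0.0435%. Peaks of 1 library alone numbered 17671 for knockout 2, 4967 for control 2, 3148 for knockout 1 and 108 for control 1. The order of these counts follows the length of the lists.

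**Figure D2:**
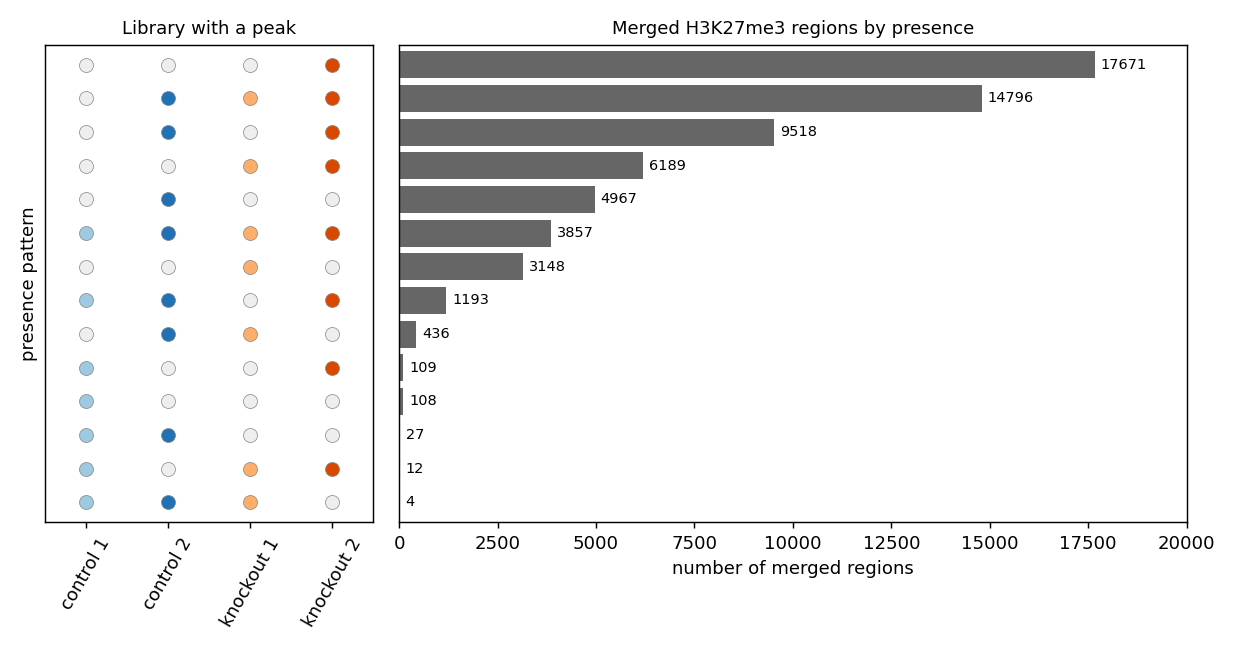
Number of merged regions for each of the 14 presence patterns found, where filled circles on the left mark the libraries with a peak and each bar on the right gives the count. Regions in knockout 2 alone (17671) and in control 2 with both knockouts (14796) are the most frequent, and 27 regions were in both controls and no knockout.

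With control 2 as the only control, 61927 regions remained. A peak in control 2 and both knockouts was found at 18653 of them, 30.1%, and these shared regions held 43.8 Mb. Both knockouts without control 2 held 6201 regions, 10.0%, and control 2 without either knockout 4994, 8.06%. These counts ask for 2 libraries on the knockout side and 1 on the control side, so that they do not weigh the genotypes alike. Control 2 was joined by knockout 2 alone at 10711 regions and by knockout 1 alone at 440.

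Regions in all 4 libraries were the strongest and widest class by their medians. Their median percentile of −log10 p within the lists was 76.3, against 60.8 for the regions of control 2 and both knockouts. The region with the highest mean percentile was chr8:122952917-122960912, with 5063, 7631, 5957 and 7994 covered bases in control 1, control 2, knockout 1 and knockout 2. Its −log10 p was 5.72, 82.8, 31.2 and 108, all within the strongest peaks of each list. The next was chr4:43076990-43081343, with 786, 1775, 3769 and 4244 bases. Both knockouts covered more of it than either control, at a fold over background of 8.80 in control 2, 13.5 in knockout 1 and 11.2 in knockout 2. The other 3 named by the same rule were chr6:146693931-146700526, chr16:18592084-18598486 and chr15:74430992-74440922, with 4708, 6025 and 6500 bases in knockout 1 against 4887, 6192 and 7405 in control 2. In these 3 knockout 2 covered the whole merged region. None of the 5 was called by the test of covered bases described further on.

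Over the shared regions, knockout 1 covered less than control 2 in the wider domains, and knockout 2 covered more in every width class. In shared regions under 1 kb, knockout 1 covered a median of 105% of the bases of control 2, and in the 391 shared regions of 8 kb or wider 73.2%. For knockout 2 the medians were 125%, 144%, 135%, 120% and 118% from the narrowest to the widest of the 5 classes, so that its excess was smaller in the widest domains than in those of 1 to 2 kb. The median bases there were 7754 in control 2, 5786 in knockout 1 and 9111 in knockout 2. Control 2 lay between knockout 1 and knockout 2, with knockout 1 lowest, in 25.8% of the narrowest and 79.8% of the widest class. Both knockouts lay above control 2 in 47.1% and 16.1% of these classes, and both below it in 19.0% and 3.84%. The same domains were split differently: a shared region held on average 1.41 peaks in control 2, 1.40 in knockout 1 and 1.15 in knockout 2. These are values of 3 libraries whose depths differ in the same order, and the part of depth was not tested.

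**Figure D3:**
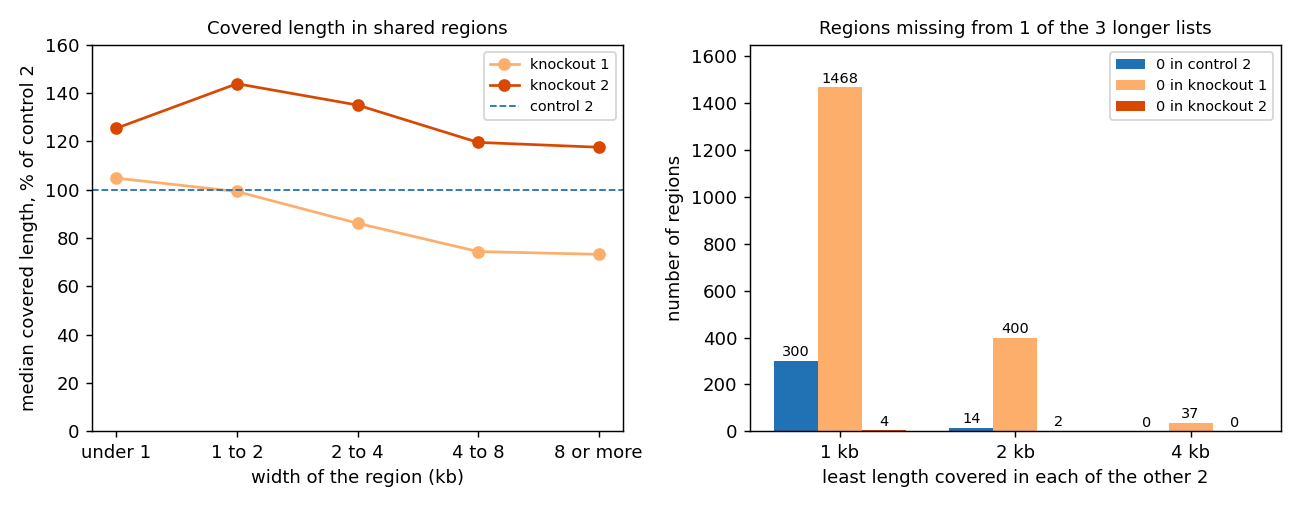
Left, median covered length of knockout 1 and knockout 2 as a percentage of control 2 (dashed line at 100%) over shared regions of rising width in kb. Right, the number of regions with no base in 1 of the 3 longer lists and at least 1, 2 or 4 kb in each of the other 2, where knockout 1 is the list with 37 such regions at 4 kb and the others have 0.

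The peak list of knockout 1 lacked wide regions that the other libraries had in common, across genotypes. Its background also differed from theirs in what is known of it. The labels of control 1, control 2 and knockout 2 each recur on an IgG sample, whereas no IgG sample carries the label ChimeraKO1. The list of knockout 1 was not scaled down, so no depth of its background library could be read back. At 37 regions it had no covered base where control 2 and knockout 2 each had at least 4 kb, and control 1 had a peak at 33 of these. No region was missing in this way from control 2 or knockout 2. At a minimum of 2 kb the counts were 400 for knockout 1, 14 for control 2 and 2 for knockout 2. The widest case was chr15:75872368-75881556, with 3857, 8726, 0 and 9170 bases in control 1, control 2, knockout 1 and knockout 2. The next were chr17:24424629-24432174, with 4327, 5054, 0 and 7546 bases, and chr8:70335265-70342650, with 5534, 6139, 0 and 7386. Knockout 2 covered all or nearly all bases of each. Control 1 points the same way over the genome: of the regions it shared with exactly 2 other libraries, 1193 lacked knockout 1, 12 lacked control 2 and 4 lacked knockout 2. Control 1 and knockout 1 had nearly the same depth, 12 and 11.6 fragments per kb. The list of control 1 starts at a looser threshold, however, so the lists are not comparable even at like depth. The part of depth, threshold or background in the regions missing from knockout 1 was not tested.

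Regions in control 2 and knockout 2 without knockout 1, here of any width, varied in share between chromosomes. With control 2 as the only control they were 17.3% of 61927 regions, with a median width of 740 bp. They made up 20.1% of the regions on chromosome 11, 19.8% on chromosome 17 and 19.7% on chromosome 15. The share was 15.1% on chromosome 1 and 15.3% on chromosome 6. As a share of its covered bases, knockout 1 was below control 2 on chromosomes 11, 17 and 15, by a log2 ratio of -0.18, -0.16 and -0.16, and above it on chromosome 6 by 0.16. Knockout 2 departed less from control 2, with log2 ratios between -0.07 and 0.08. Control 1 was above control 2 on chromosomes 11, 15 and 17, by 0.31, 0.21 and 0.03, and its largest departures were -0.43 on chromosome 13 and -0.38 on chromosome 18. These ratios are descriptions of 1 library each.

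**Figure D4:**
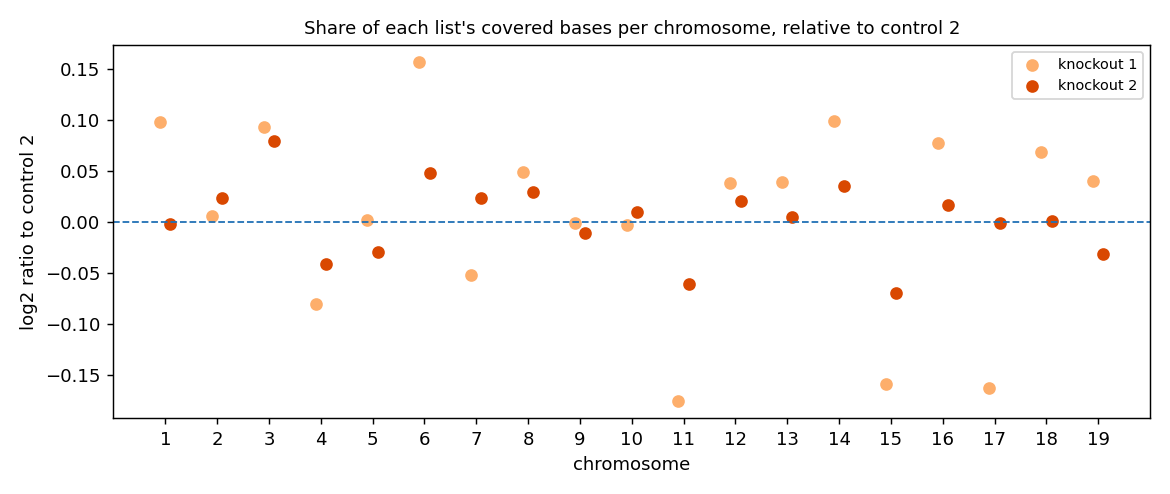
Log2 ratio of the share of covered bases on each autosome to that of control 2 (dashed line at 0), for knockout 1 and knockout 2. Knockout 1 lies lowest on chromosomes 11 (-0.18), 17 and 15 and highest on chromosome 6 (0.16), while knockout 2 stays between -0.07 and 0.08.

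By similarity of covered bases, the closest pair of libraries was 1 control and 1 knockout. The Jaccard index, the shared bases over all bases under peaks of a pair, was highest between control 2 and knockout 2, at 0.518. It was 0.387 between the knockouts and 0.359 between control 2 and knockout 1. Over the 3857 regions in all libraries, the Spearman correlation of −log10 p across regions had the same order, at 0.493, 0.432 and 0.314. For control 1 the Jaccard index was highest with control 2, at 0.111, against 0.0777 with knockout 1 and 0.0759 with knockout 2. Control 1 placed 92.2% of its bases under peaks of control 2, 96.5% under knockout 2 and 52.1% under knockout 1, lists that cover 40.1, 62.0 and 30.4 Mb. Its −log10 p correlated with theirs at 0.145, 0.108 and -0.01 across the same regions, which are not independent replicates and whose values depend on the depth of each list.

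Regions found in both knockouts and in no control were narrow and of middling strength. Their median width was 739 bp, and their median percentile of −log10 p was 41.3. With control 2 as the only control, they lay a median of 2.95 kb from the nearest region shared by the 3 longer lists, and 42.4% were within 2 kb of one. Regions of control 2 and knockout 2 without knockout 1 were alike, with a median width of 740 bp and a median percentile of 45.3. They lay at a median of 2.74 kb, with 44.3% within 2 kb. Classes that ask for 1 library lay farther out. The medians were 7.50 kb for control 2, with 27.4% within 2 kb, 4.60 kb for knockout 1 and 5.29 kb for knockout 2. The strongest knockout-only regions were chr2:123931593-123933025, with 1248 and 1433 covered bases in knockouts 1 and 2, and chr16:91079234-91080321, with 1088 and 696. Their −log10 p was 30.6 and 49.2 for the first and 28.0 and 43.5 for the second, at 9.31-fold to 10.5-fold enrichment over background. The other 3 named were chr7:136855243-136856590, chr6:17466098-17467105 and chr4:118875915-118877106, with 946, 1006 and 1002 bases in knockout 1 and 1348, 763 and 1192 in knockout 2. Presence was fixed by the choice of these regions. None of the 5 had an H3K27ac peak within 10 kb in any of the 6 H3K27ac libraries.

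Neighbouring knockout-only regions also formed longer stretches. Joining those within 10 kb of each other, with no peak of control 2 in between, gave 5068 stretches, and 104 of them held at least 2 kb of covered bases in each knockout. The longest by covered bases was chr2:69952142-69966608, with 5625 bases in knockout 1 and 9815 in knockout 2. It held 4 knockout-only regions, and its bases include a peak of knockout 2 alone between them. It was followed by chr13:56772889-56790158, with 5565 and 5144 bases, and chr2:127526871-127541002, with 4529 and 5028. Controls 1 and 2 had no base in any of the 3. Joined by the same rule, regions of control 2 with neither knockout formed 4361 stretches, of which 16 held at least 2 kb in control 2.

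Regions in both controls and no knockout were few, and the strongest of them lay at 1 locus on chromosome 8. Of the 27, the highest by mean percentile was chr8:124529708-124530462, with 687 bases in control 1 and 755 in control 2, at a −log10 p of 4.30 and 56.0. Its neighbour chr8:124532077-124535224 was the next, with 359 and 3148 bases. Across chr8:124521314-124535224, the control 2 list held 4499 bases, control 1 1046 and the knockouts 0. This was the longest stretch of control 2 without either knockout. The other 3 named were chr11:102879567-102881506, with 1098 and 1940 bases in controls 1 and 2, chr5:134728614-134729383, with 273 and 770, and chr3:96296951-96298698, with 277 and 1748. Control 1 covered 4.89 Mb in all, 11.3% of the bases of control 2 among them, so that the count is not a measure of how much was missing in knockouts.

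Covered bases were then tested between genotypes at the 36141 regions with a peak in at least 2 libraries, using limma on log2(bases + 100) with Benjamini-Hochberg adjustment. At an adjusted p under 0.05, 63 regions were higher and 6 lower in knockouts, 0.174% and 0.0166% of those tested. The median change over all tested regions was 0.62 on this log2 scale. Of the 63 regions called higher, 62 had a peak in both knockouts and in neither control. They entered the test only through the genotype in which they were high, so that their call adds nothing to the presence of the peaks and their values are given below as a description. With no filter on regions limma called 0 higher and 0 lower (2469 and 853 at an unadjusted p under 0.05). The remaining region called higher, of 12012 bp, had a peak in control 2 as well and a change of 2.69. With control 2 as the only control, 114 regions were called higher, 0.315%, and 2 lower, 0.00553%, and 62 of the 63 were among the 114.

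Among the regions called higher, the largest difference was at chr2:69962639-69966608, which had 0 bases in both controls, 2320 in knockout 1 and 3926 in knockout 2. On the log2 scale the difference was 4.15 with an SE of 0.875, and with no filter its limma adjusted p was 0.164. The next, chr11:101948787-101952529, had 0, 0, 2292 and 3743 bases in control 1, control 2, knockout 1 and knockout 2. At chr4:139729163-139732635 the bases were 0, 0, 2185 and 3448, and at chr17:86536689-86539970 they were 0, 0, 2227 and 3282. Knockout 2 covered more than knockout 1 in each of these 4. At chr11:103389796-103393532 the order was the other way, with 3297 bases in knockout 1 and 2084 in knockout 2. The other 5 of the 10 largest were chr8:93685637-93688890, chr15:85048683-85051231, chr12:116603691-116607234, chr13:70987895-70991353 and chr7:83868292-83871676, with log2 differences between 3.82 and 3.87 whose size depends on the pseudocount. All 10 had 0 bases in both controls. None of their calls was kept with no filter, with a pseudocount of 10 or 1000 bases, with quantile normalization or without centring, and without knockout 2 those on chromosomes 8 and 13 were lost as well.

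The 6 regions called lower split into those absent from both knockouts and those absent from knockout 1 only. At chr11:102879567-102881506, controls 1 and 2 had 1098 and 1940 bases and both knockouts 0, and at chr8:124532077-124535224 the controls had 359 and 3148 and both knockouts 0. These 2 entered the test only through the controls, and with no filter their limma adjusted p-values were 0.0610 and 0.164. The other 4 had 0 bases in knockout 1 and some in knockout 2. Of these, chr8:70335265-70342650 and chr15:75872368-75881556 had more bases in knockout 2, 7386 and 9170, than in either control, and chr15:98686821-98688279 and chr9:109643425-109644854 had 363 and 298, below both. None of the 6 passed without control 1, with limma adjusted p-values between 0.304 and 0.863.

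These calls depended on the libraries and on the scale. Without control 2 limma called 3556 regions higher and 758 lower, without knockout 1 151 and 27, and without knockout 2 41 and 2. No region was called with quantile normalization (907 higher and 2052 lower at an unadjusted p under 0.05, against 1886 and 842 with median centring) or without centring (5588 and 22), where the median change over all regions was -0.03 and 1.43. In bins of 10 kb, limma called 52 of 20626 higher, 0.252%, and 9 lower, 0.0436%. The bins passed the same filter, so that those covered in 1 genotype alone entered only through it.

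H3K27ac in the other 6 libraries of the series was set beside these regions. The share of H3K27me3 regions that contained an acetylated base lay between 0.0822% and 0.0951% over the 3 control lists. Over the 3 knockout lists it lay lower, between 0.0161% and 0.0403%. Within 10 kb the shares were 7.64%, 6.55% and 7.18% for controls 1 to 3. For knockouts 1 to 3 they were 7.61%, 5.64% and 4.04%. The counts by direction given below were not adjusted for these differences between lists. All 3 controls and no knockout had an acetylated base inside the region at 16 regions, 0.0258%. All 3 knockouts and no control had one at 1, 0.00161%. Within 10 kb, each control covered more acetylated bases than each knockout at 473 regions, 0.762% of all, and each knockout more than each control at 203, 0.327%. Of the 6201 knockout-only regions (control 2 as the only control) the counts were 46 (0.742%) and 10 (0.161%), close to the background in the first direction. All 3 H3K27ac controls and no knockout had acetylation within 10 kb at 22 of them, 0.355%, and the reverse was found at 0. Over all regions these counts were 137, or 0.221%, and 18, or 0.0290%. Of the 4994 regions of control 2 without either knockout, 34 (0.681%) and 42 (0.841%) fell in the 2 directions. Of the 63 regions called higher, 57 (90.5%) had no H3K27ac within 10 kb in any library, about the share over all regions tested, 90.9%.

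At a few loci H3K27me3 of one genotype and H3K27ac of the other covered the same bases. These loci were picked for their values in both marks, so the values are a description with no test. At chr16:90126356-90128501, H3K27me3 covered 0 bases in both controls, 1211 in knockout 1 and 2131 in knockout 2. Of the same region, H3K27ac controls 1 to 3 had 1266, 695 and 983 bases and the 3 H3K27ac knockouts none. Within 20 kb of its centre control 2 held 998 bases of H3K27me3, outside the region, against 5565 and 9109 in the knockouts. At chr4:141678524-141680674, H3K27me3 covered 0, 0, 1186 and 1688 bases in control 1, control 2, knockout 1 and knockout 2, while the H3K27ac controls had 1152, 1328 and 1008 and the H3K27ac knockouts 0. No library of either mark had another peak within 20 kb of that centre. The 2 marks occupied the same short segment there in opposite genotypes.

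At the locus on chromosome 2 with the largest difference in covered bases, most peaks of the 2 marks lay side by side. Within 40 kb of the centre of chr2:69962639-69966608, control 1 had 0 bases of H3K27me3, control 2 260, knockout 1 7729 and knockout 2 15158. The H3K27ac controls had 7201, 5674 and 8121 bases there, and the H3K27ac knockouts 853, 616 and 569. The acetylated bases of the knockouts lay at the far edge of this window, and those of the controls reached closer to the region. Inside the region itself no library had H3K27ac, but 1 peak of H3K27ac control 3 farther out lay within a H3K27me3 peak of knockout 2. In the opposite direction, chr13:60750253-60750682 was a peak of 430 bp in control 2 alone, and H3K27ac covered 430, 430 and 157 of its bases in knockouts 1 to 3 and 0 in the controls. At chr9:75532257-75532511 both marks were found in the same genotype instead: H3K27me3 covered 255 bases in control 2 alone, and H3K27ac 89, 248 and 255 in its controls and 0 in its knockouts. At the control-only locus on chromosome 8, 1 of 6 H3K27ac libraries had a peak within 20 kb, knockout 1 with 658 bases.

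**Figure D5:**
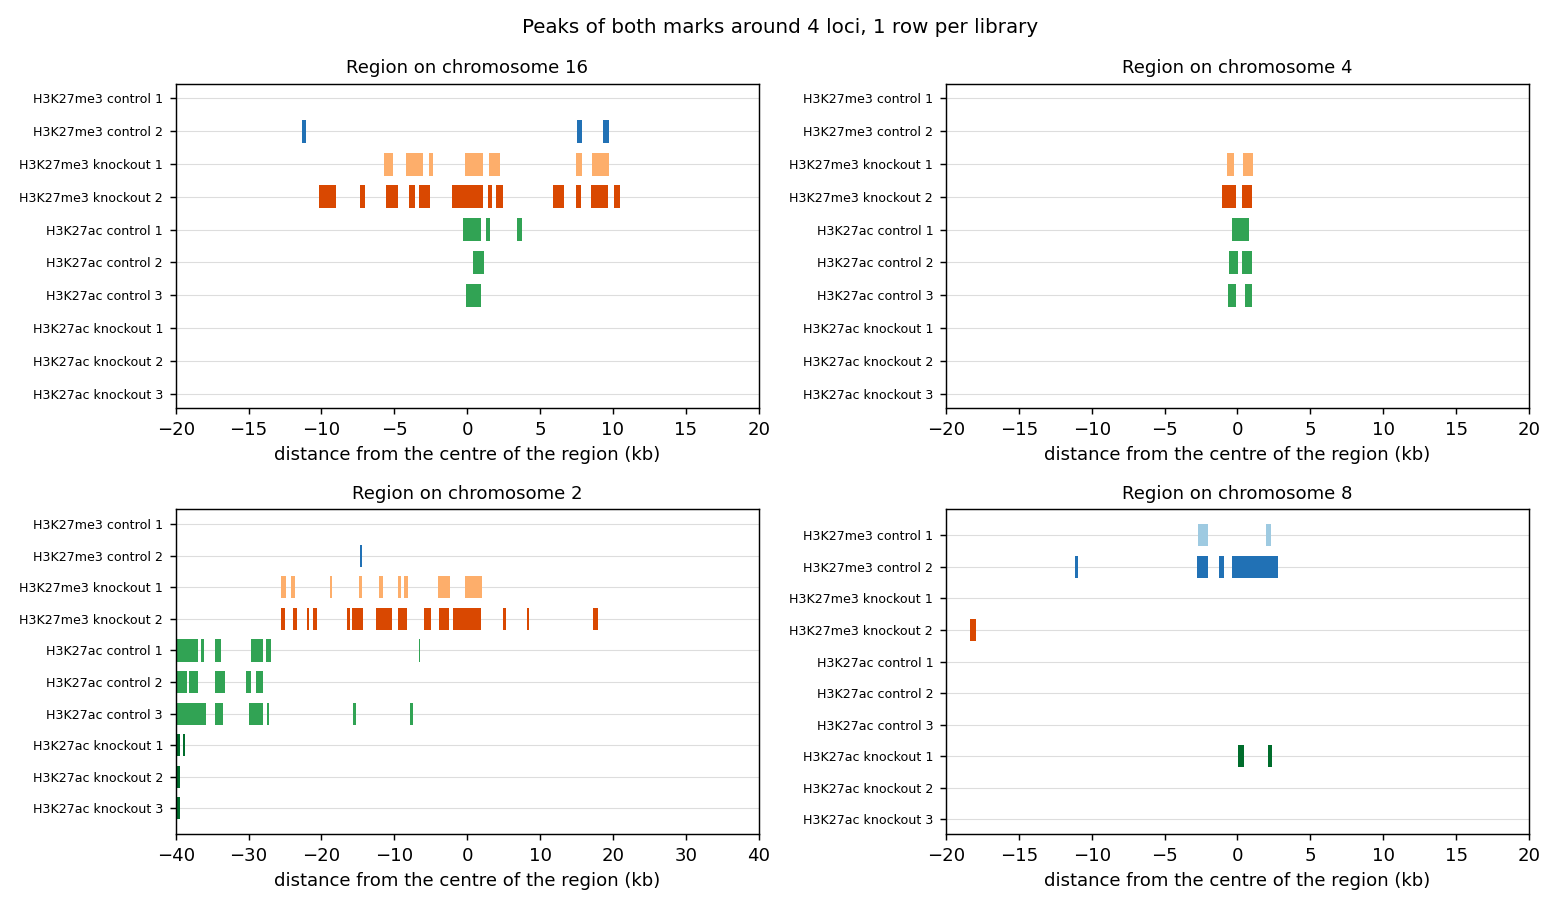
Peaks as bars in each of the 4 H3K27me3 and 6 H3K27ac libraries at 4 loci, by distance in kb from the centre of the region. On chromosomes 16 and 4 the H3K27me3 bars of both knockouts overlap the H3K27ac bars of the 3 controls, on chromosome 2 most bars of the marks lie next to each other and 1 bar of H3K27ac control 3 overlaps one of H3K27me3 knockout 2, and on chromosome 8 H3K27me3 is in the controls, with 1 bar of knockout 2 near the left edge.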

How the data were processed

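Per the submitters' processing notes, the reads were handled with Bowtie2 2.2.4, deepTools 3.5.1, MACS2, ChIPseeker 1.30.3 and HOMER 4.11 on build mm39; settings are not given in the sources used here. The authors deposited 1 peak list per library, with each peak's start and end, a score, its fold enrichment as a ratio over local background, and its p and q as −log10. Such values hold only inside their own list and were used to rank or describe peaks there and to read back depth; counts of reads were not used here, so depth and background are estimates from MACS2's Poisson model. Positions are counted from 1.

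Regions were the merged peaks of the 4 lists (overlap of 1 bp, chromosomes 1 to 19). Bases under peaks, as log2(bases + 100) and after subtracting each library's median over the regions covered in all 4, were tested with limma 3.58.1 in R 4.3.3 (trended, robust, no block, regions in at least 2 libraries). The fit was tried on simulated normal noise, which lacks the exact zeros and unequal lists of these data. Library values were compared by exact permutation tests. Named were up to 10 regions per direction with the largest change past an adjusted p of 0.05, and 5 each in all libraries, in both knockouts only and in both controls only by mean percentile of −log10 p. Regions missing from 1 library, long stretches and loci with both marks were chosen after their values were seen. The members and lists were chosen with earlier results of these data known. The tables at hand are of GRCm38.p6, so the planned promoter tests, gene lists and sequences were left out.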

Additional observations from a re-analysis of the deposited data

How the results depend on the processing

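Mean peak number and covered length stayed higher in knockouts with the stronger 50% of each list and without each library in turn. With 1 library left out, the differences ran from 3090.5 to 38836.5 peaks and from 6.16 to 41.3 Mb. With lists of equal length, where peak number is 7507 in every library by construction, covered length was 5.94 Mb higher. Except where control 1 was left out, these means include its short list. Control 2 lay between the knockouts, with 43253 peaks against 36053 in knockout 1 and 56634 in knockout 2. With lists of equal length it covered 16.2 Mb, against 10.4 Mb in knockout 1 and 22.6 Mb in knockout 2, and control 1 covered 4.89 Mb. Counts of regions moved, and the cause was not tested beyond the fewer peaks or libraries compared. Regions in all libraries numbered 1685 with the stronger 50% of each list, 1404 with equal lists and 143 where peaks had to cover at least 50% of the region, and between 3925 and 18653 with 1 library left out. Regions in both controls only numbered 89 with the stronger 50%, 568 with equal lists and 13 with peaks within 1 kb merged, and between 30 and 5000 with 1 library left out. Regions in both knockouts only numbered 3529, 903 and 3256 under the same settings, and between 6201 and 24745 with 1 library left out.

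For limma, 6 regions lower became 1 with the stronger 50%, 2 with equal lists, 1 with a pseudocount of 10 bases, 0 with 1000 bases, 0 with no filter, 0 with no centring and 0 with quantile normalization, and between 2 and 758 with 1 library left out. The 63 higher became 0 under each of these 7 settings, and between 41 and 3556 with 1 library left out. At an unadjusted p under 0.05 limma gave 637 higher and 174 lower with the stronger 50%, 99 and 716 with equal lists, 832 and 203 with 10 bases, 615 and 479 with 1000 bases and 2469 and 853 with no filter. With the chimera number as a replicate block, 0 were higher and 1 lower (1677 and 273 unadjusted); the deviations of control 1 and knockout 1 correlated at 0.133 over 36141 regions, and no source says that the numbers pair the libraries. No named change turned its sign where it was refitted. With equal lists only 4 of the 16 named regions were refitted, with the stronger 50% not all, and in bins of 10 kb none. The 10 named as higher had 0 bases in both controls, and 2 of the 6 lower had 0 in both knockouts. The sign of these could hardly turn. In fits with 1 library left out, the lone library is assumed to vary like the other group. The promoter tests were not run. With 2 libraries a group, unequal depth and 1 short list, a peak that is missing is not shown to be absent.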

Other observations

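Shares of regions in control 2 with neither knockout, a class that asks for 1 library, and in both knockouts without control 2 varied between windows. Among 1037 windows of 1 Mb with at least 20 regions, regions of control 2 with neither knockout made up a median of 7.14% and at most 46.4%, in chr2:154000001-155000000, where they were 13 of 28 regions against 1 in both knockouts only. The next windows were chr8:34000001-35000000, with 10 of 23, and chr9:44000001-45000000, with 10 of 24, and neither held a region of both knockouts only. Regions of both knockouts without control 2 made up a median of 9.38% and at most 40% (8 of 20), in chr1:188000001-189000000, followed by chr3:82000001-83000000, with 9 of 25. These windows were picked for their shares out of 1037, and each holds few regions. Whether regions of either class gather in parts of the genome was not tested.

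Peaks of different H3K27me3 lists began at exactly the same base more often than at a small offset. Control 2 and knockout 2, with 43253 and 56634 peaks, shared 1055 peak starts, against a mean of 103 at each offset of 1 to 12 bp and at most 240. Control 1 and knockout 1 shared 68, against a mean of 6.08, and both knockouts shared 641, against 61.6. Between H3K27ac control 1 and H3K27me3 control 2 there was 1 shared start.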
